A study of Mus musculus with 8 samples.

Results

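The genes of gluconeogenesis and of amino acid entry into it were followed in liver and subcutaneous fat of MKRN1-null and WT mice. The 10 genes were chosen by symbol, among the 24462 genes with a symbol, as Pcx, Pck1, Pck2, Fbp1, G6pc and Slc37a4 of the route from pyruvate to glucose and Gpt, Got1, Tat and Sds of amino acid entry. Poly(A) RNA had been sequenced in 8 libraries, 2 from WT liver, 2 from MKRN1-null liver, 2 from WT fat and 2 from MKRN1-null fat. All mice were male C57BL/6 mice fed an HFD (high-fat diet) for 19 weeks from 6 weeks of age, and their age in the labels was 24 weeks. These label entries do not sum to each other, and the study's methods state a shorter HFD for its obesity experiments. The MKRN1-null mice lacked Mkrn1, which encodes an E3 ubiquitin ligase, in every tissue, and the WT mice were littermates from heterozygous breeding on the same backcrossed background. The feeding state when the tissues were taken was not given in the sources used here. Both groups received the HFD, so the comparison is of genotype under HFD and not of diet. Liver and fat libraries with the same genotype and number carried the same animal code.

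Gluconeogenesis makes glucose from lactate, pyruvate, glycerol and amino acids, and it keeps blood glucose up between meals. It runs glycolysis backwards except at the irreversible steps, which have their own enzymes (pyruvate carboxylase, phosphoenolpyruvate carboxykinase, fructose bisphosphatase and glucose-6-phosphatase). Liver carries the whole route, whereas adipocytes use its beginning, pyruvate carboxylase and phosphoenolpyruvate carboxykinase, to make glycerol 3-phosphate for triglycerides (glyceroneogenesis).

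Expression is given in FPKM (fragments per kilobase of transcript scaled to the depth of the library), summed over the transcripts of a gene. Testing was by limma on log2(FPKM + 1) within a tissue, for genes that reached an FPKM of 1 in 2 or more of its 4 libraries, and adjusted p covers every gene tested there. A gene is said to have risen or fallen at an adjusted p under 0.05. The study thresholds are a second criterion, by which the unadjusted p must not exceed 0.05 and the log2 fold change must reach 0.58 in either direction. With 2 libraries per genotype, p measures the spread between these mice only.

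The libraries held 6.05 to 7.46 aligned gigabases in liver and 5.72 to 9.24 in fat. Mkrn1 was 9.42 and 10.1 FPKM in WT livers and 2.86 and 2.21 in MKRN1-null livers, and 16.8 and 19.3 in WT fat against 4.58 and 2.90 in MKRN1-null fat. The livers were rich in hepatocyte markers, whose sum over 5 genes in FPKM was 56835 and 50445 for WT mice and 59825 and 61077 for MKRN1-null mice. MKRN1-null fat replicate 2 stood apart, since the sum of 8 skeletal muscle markers was 85157 FPKM there and 29.4 to 235 in the other 3 fat libraries. Its adipocyte markers summed to 21615 FPKM, against 33457 to 44312 in the others.

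In WT liver the 10 genes spanned a wide range of levels per length. Fbp1 was highest at 797 ± 28.3 FPKM (SD, n = 2), followed by Pck1 at 565 ± 165 and G6pc at 305 ± 87.5. Tat (263 ± 28.2) overlapped with G6pc and could not be ordered against it. Pcx (237 ± 0.253) lay below both libraries of each, by less than their SD. Gpt followed at 168 ± 0.468 and Sds at 135 ± 7.47, and their libraries did not overlap. Slc37a4 (75.8 ± 24.4) and Got1 (72.3 ± 1.45) could not be ordered, and Pck2, the mitochondrial carboxykinase, was lowest at 1.35 ± 0.244. Pck1, the cytosolic form, was thus far above Pck2 in every liver.

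In MKRN1-null liver G6pc, Pcx and Pck2 fell and Gpt rose, while Pck1, Slc37a4, Fbp1, Got1, Tat and Sds passed neither criterion. Over all 10822 tested genes 16.9% fell and 2.51% rose, so that 3 lower and 1 higher of 10 genes stand against a background in which lower genes were common. The count of 3 includes Pck2, which reached the filter only in the WT livers. The median log2 fold change of the 10 genes was −0.22, against −0.18 over all tested genes. By the study thresholds 1 of the 10 genes was lower (13.4% of all tested genes) and 0 were higher (2.25% of all tested genes). Both MKRN1-null livers lay below both WT livers in 6 of the 10 genes, against 57.5% of all tested genes, and above both in 1, against 11.8%. Median-of-ratios scaling, which assumes that most genes do not change, moved the median over all genes from −0.18 to 0.05 and left 0 of the 10 genes lower and 1 higher.

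**Figure D1:**
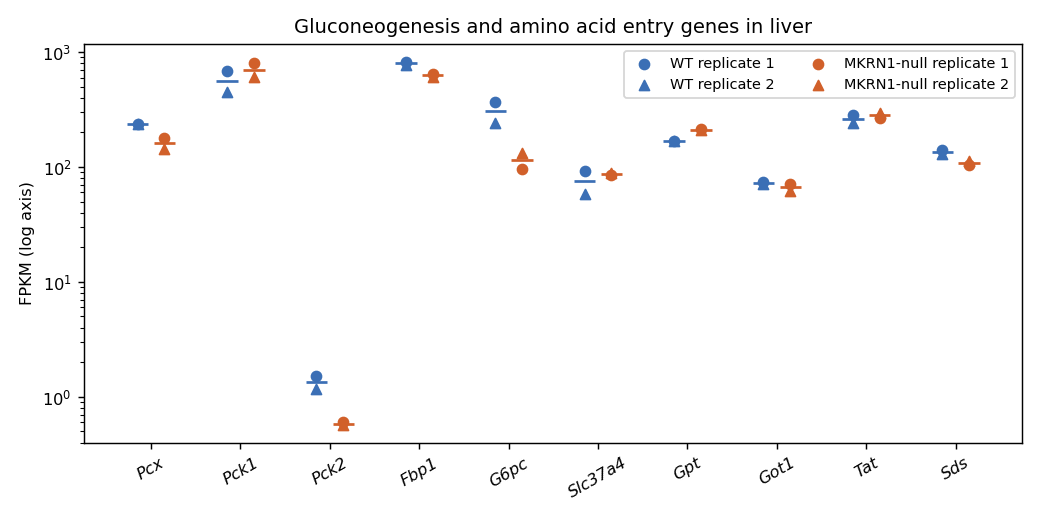
FPKM of the 10 genes in each liver library on a log axis, with WT in blue and MKRN1-null in orange, circles for replicate 1, triangles for replicate 2 and bars for the mean of 2 libraries. The MKRN1-null libraries of G6pc (97.0 and 134 FPKM) lie below both WT libraries (366 and 243), those of Gpt (214 and 210) lie above (168 and 167), and those of Pck1 overlap with WT.

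Markers of other cell types moved with genotype in the same libraries. Sums of marker FPKM were lower in both MKRN1-null livers than in both WT livers for cholangiocytes (37.7 and 32.1 against 252 and 209), stellate cells and fibroblasts (56.8 and 60.2 against 201 and 148) and macrophages (97.1 and 103 against 232 and 134). Endothelial sums (20.5 and 24.9 against 48.8 and 30.6) and lymphocyte sums (2.10 and 2.20 against 5.45 and 4.29) were lower too. Their lists had 5 of 5 and 4 of 5 genes lower in both. Adipocyte sums were 45.0 and 24.4 against 70.7 and 81.5, with 3 of 7 genes lower in both. Among these Fabp4 (14.7 and 12.8 against 47.3 and 44.6) and Pparg (6.36 and 4.48 against 17.6 and 19.8) were lower. Cfd overlapped, and Adipoq, Lep, Plin1 and Retn were at most 0.225 FPKM. Over all tested genes 57.5% were lower and 11.8% higher in both. Of the cholangiocyte, stellate cell and macrophage lists 4 of 5, 4 of 5 and 5 of 6 genes were lower in both, and no marker was at 0 in all livers. Among hepatocyte markers 3 of 5 genes were higher in both MKRN1-null livers and 1 was lower in both. Pericentral hepatocyte markers summed to 6757 and 7028 FPKM in MKRN1-null livers against 4417 and 4213 in WT livers, although 3 of the 8 genes were lower and 4 higher in both. Most of that sum was Cyp2e1 (5917 and 6178 against 3597 and 3390). Glul was among the 3 lower genes (305 and 277 against 501 and 490). The sum of periportal markers was 1427 and 1523 FPKM in MKRN1-null livers against 1461 and 1531 in WT livers. The part of these shifts in the results was not tested, and in bulk tissue fewer cells of a type and less RNA per cell cannot be told apart.

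G6pc encodes the catalytic subunit of glucose-6-phosphatase, which releases free glucose at the end of the route (Entrez 14377, chromosome 11, 101367716 to 101377903, mm10, 5 exons). G6pc was 366 and 243 FPKM in WT livers and 97.0 and 134 in MKRN1-null livers. The higher MKRN1-null library was well under the lower WT library. G6pc fell by 1.38 on the log2 scale (standard error 0.25, adjusted p = 0.0296 from limma), a 2.64-fold lower mean. Its fold change was the largest of the 10 genes and the only one that also passed the study thresholds. All 5 exons were lower in both MKRN1-null livers, at 0.276 to 0.400 of the WT mean. Coverage of the first exon was 62.8% and 55.1% of that of the last exon in WT livers and 42.2% and 40.4% in MKRN1-null livers, a shift along the transcript whose part in the result was not tested. Under median-of-ratios scaling the change was −1.12 (adjusted p = 0.0505). Quantile normalization gave −1.33 (adjusted p = 0.0619), and no filter on low values gave −1.38 (adjusted p = 0.054). It was −1.09 without WT replicate 1 (adjusted p = 0.07), −1.15 without MKRN1-null replicate 1 (adjusted p = 0.0914) and −1.61 without MKRN1-null replicate 2 (adjusted p = 0.09).

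Slc37a4 encodes the transporter that brings glucose 6-phosphate to G6pc in the endoplasmic reticulum. Slc37a4 was 93.1 and 58.6 FPKM in WT livers and 85.1 and 88.5 in MKRN1-null livers. The MKRN1-null values lay between the WT values. The log2 difference was 0.23 with a 95% interval of −0.36 to 0.82 (adjusted p = 0.493), which still includes a rise of more than 1.5-fold. Whether Slc37a4 and G6pc differed from each other in their change was not tested.

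Pck1 encodes the cytosolic carboxykinase that turns oxaloacetate into phosphoenolpyruvate (Entrez 18534, chromosome 2, 173153073 to 173159253, mm10, 10 exons). Pck1 was 682 and 448 FPKM in WT livers and 805 and 601 in MKRN1-null livers. The groups overlapped, since WT replicate 1 exceeded MKRN1-null replicate 2. The log2 difference was 0.33 (standard error 0.25, adjusted p = 0.377), and its 95% interval of −0.33 to 0.99 did not reach the fall seen for G6pc. None of the 10 exons separated the genotypes in liver, and the exon ratios of MKRN1-null to WT were 1.14 to 1.29.

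G6pc and Pck1 are textbook targets of the same fasting signals, glucagon through cAMP on the one hand and insulin on the other, so their promoters are shown side by side. The sequences come from RefSeq on GRCm38.p6, the patch release of mm10, and run from 250 bases before the annotated start to 50 bases from it on the plus strand, at chr2:173152823-173153122 for Pck1 and chr11:101367466-101367765 for G6pc. Capitals mark TTACGTNA, a cAMP response element type motif, in both and, in G6pc, TGATGNAA read from the minus strand and TATAAA.
Pck1: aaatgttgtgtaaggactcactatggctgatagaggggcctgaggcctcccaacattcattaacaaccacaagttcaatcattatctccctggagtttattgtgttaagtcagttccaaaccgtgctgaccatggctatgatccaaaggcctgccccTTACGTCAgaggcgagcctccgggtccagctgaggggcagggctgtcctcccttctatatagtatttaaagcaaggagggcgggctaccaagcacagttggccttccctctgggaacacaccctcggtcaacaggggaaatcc
G6pc: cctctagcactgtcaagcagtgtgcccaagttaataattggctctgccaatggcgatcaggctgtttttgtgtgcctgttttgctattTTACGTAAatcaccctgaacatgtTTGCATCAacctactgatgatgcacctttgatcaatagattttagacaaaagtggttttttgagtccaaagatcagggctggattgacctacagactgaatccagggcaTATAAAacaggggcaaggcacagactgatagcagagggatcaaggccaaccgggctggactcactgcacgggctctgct
TTACGTNA lay at −93 to −86 in Pck1 and at −162 to −155 in G6pc, and it was in 0.898% of all 32851 promoters of this length, searched on both strands. No other promoter of the 8 genes with a RefSeq promoter (11 sequences) held it. The pattern was picked after these sequences had been seen, so its presence in both was settled by that choice and is no finding. The half-site TGACG, set before the sequences were seen, is in 20.8% of promoters. It was found in promoters of Pck1 and Slc37a4 and not in that of G6pc. TATAAA was at −29 in G6pc and at −32 in a promoter of Slc37a4 (13.6% of promoters) and TGATGNAA at −138 in G6pc, −103 in Pck2 and −102 in Got1 (3.97% of promoters). The palindromic TGACGTCA and the forkhead motif TGTTTAC (1.79% and 3.65% of promoters) were in none of the 11 sequences. These matches describe letters in a window and no binding.

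Pcx encodes pyruvate carboxylase, the mitochondrial entry step that makes oxaloacetate from pyruvate (Entrez 18563, chromosome 19, 4510472 to 4621752, mm10). Pcx was 237 and 238 FPKM in WT livers and 179 and 142 in MKRN1-null livers. The WT livers were nearly equal, and both MKRN1-null livers lay below them. Pcx fell by 0.57 on the log2 scale (standard error 0.13, adjusted p = 0.0447 from limma), a 1.48-fold lower mean. All 22 annotated exons were lower in both MKRN1-null livers. Leaving out any 1 of the 4 libraries gave −0.41 to −0.74 and an adjusted p of 0.0545 to 0.16, and median-of-ratios scaling gave −0.31 (adjusted p = 0.194). The call therefore rests on all 4 libraries and on the scaling.

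Pcx is annotated with 2 transcripts that share their downstream exons but begin at different starts, one distal and one proximal to the common exons. The starts are shown because coverage of their own exons differed between the genotypes to unlike extents. Capitals mark CCAAT, a pattern picked after the sequences had been seen, which is in 37.4% of all promoters of this length. The distal window is chr19:4510222-4510521 and the proximal window chr19:4594069-4594368 (GRCm38.p6, plus strand).
Pcx distal: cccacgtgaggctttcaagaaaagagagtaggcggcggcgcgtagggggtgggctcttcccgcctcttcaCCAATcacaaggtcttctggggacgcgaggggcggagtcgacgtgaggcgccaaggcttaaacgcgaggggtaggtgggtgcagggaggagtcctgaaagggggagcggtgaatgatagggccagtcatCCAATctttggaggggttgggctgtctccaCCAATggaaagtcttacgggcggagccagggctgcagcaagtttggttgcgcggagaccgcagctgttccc
Pcx proximal: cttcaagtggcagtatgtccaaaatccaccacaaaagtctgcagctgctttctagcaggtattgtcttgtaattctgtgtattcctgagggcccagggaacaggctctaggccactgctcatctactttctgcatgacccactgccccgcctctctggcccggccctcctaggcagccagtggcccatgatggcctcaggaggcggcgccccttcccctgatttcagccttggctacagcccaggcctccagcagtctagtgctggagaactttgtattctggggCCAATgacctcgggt
CCAAT lay at −180, −51 and −21 in the distal window and after the start, at 35, in the proximal window. Neither window held TTACGTNA, TATAAA or TGATGNAA. Coverage per aligned gigabase of the first exon of the proximal transcript was 12.4 and 12.4 in WT livers and 6.76 and 3.63 in MKRN1-null livers, 2.39-fold higher in WT. Coverage of the first exon of the distal transcript was 12.3 and 10.01 in WT livers and 8.81 and 7.78 in MKRN1-null livers, 1.34-fold higher in WT. Both exons separated the genotypes, with the wider gap at the proximal start. Coverage of the proximal first exon as a share of that of the distal first exon was 101% and 124% in WT livers and 76.7% and 46.7% in MKRN1-null livers. In fat this share was 164% and 206% in WT and 76.6% and 61.7% in MKRN1-null libraries, so that the groups did not overlap in either tissue. These shares are given without a test and do not measure how much each start was used. The second distal exon had a coverage of 69.0 and 55.4 in WT livers and 46.0 and 39.5 in MKRN1-null livers, far above the first. StringTie gave the proximal transcript 28.8% and 33.8% of Pcx FPKM in WT livers and 25.7% and 16.1% in MKRN1-null livers. In fat it gave 34.8% and 38.4% in WT and 19.8% and 15.8% in MKRN1-null libraries. In StringTie's split between the transcripts the proximal one differed by −1.16 in liver (adjusted p = 0.133 over all transcripts) and by −1.98 in fat (adjusted p = 0.718), and the distal one by −0.37 (adjusted p = 0.1) and −0.59 (adjusted p = 0.718).

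**Figure D2:**
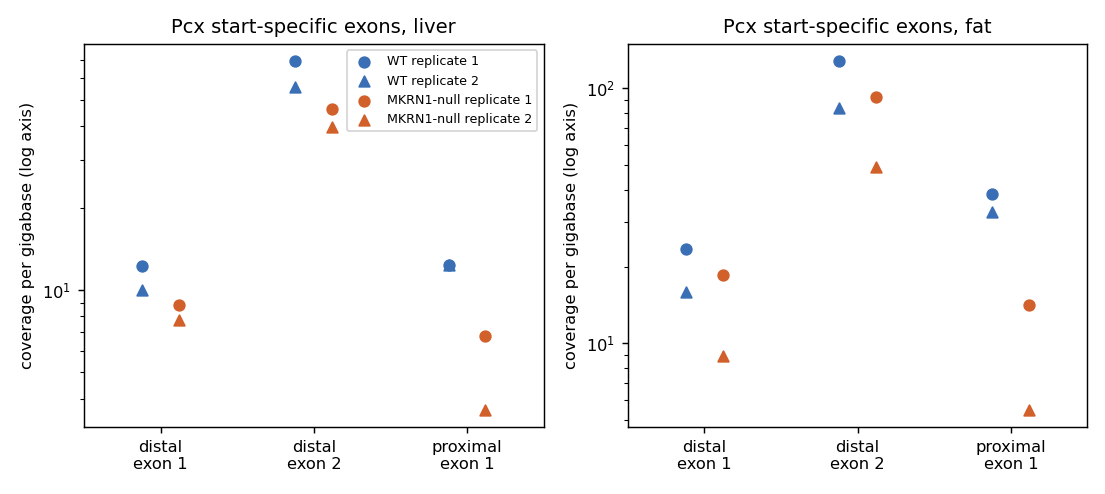
Coverage of the exons that belong to only 1 of the Pcx starts, per aligned gigabase on a log axis, in liver and in fat, with WT in blue, MKRN1-null in orange, circles for replicate 1 and triangles for replicate 2. The proximal exon 1 of MKRN1-null libraries (6.76 and 3.63 in liver, 14.2 and 5.49 in fat) lies below that of WT libraries (12.4 and 12.4 in liver, 38.4 and 32.6 in fat).

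Pck2, the mitochondrial form of the carboxykinase, was scarce in all livers. Pck2 was 1.52 and 1.18 FPKM in WT livers and 0.599 and 0.573 in MKRN1-null livers, with a mean coverage of 8.78 to 9.21 and 3.74 to 3.76 reads per base. Both MKRN1-null livers lay below both WT livers. Pck2 fell by 0.56 on the log2(FPKM + 1) scale (standard error 0.12, adjusted p = 0.0399 from limma), and its mean FPKM was 2.30-fold lower. Since only the WT livers reached an FPKM of 1, its passing of the filter already favoured a lower value in MKRN1-null liver. Under median-of-ratios scaling the change was −0.44 (adjusted p = 0.0659), and it had an adjusted p of 0.152 without MKRN1-null replicate 1 and 0.196 without MKRN1-null replicate 2.

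Fbp1 encodes fructose bisphosphatase, the enzyme opposite to phosphofructokinase. Fbp1 was 817 and 777 FPKM in WT livers and 645 and 608 in MKRN1-null livers. The genotypes did not overlap, and all 7 exons were lower in both MKRN1-null livers, at 0.749 to 0.812 of WT. The log2 difference of −0.35 (standard error 0.09) missed the threshold with an adjusted p of 0.0597. It was −0.08 under median-of-ratios scaling (adjusted p = 0.571) and −0.52 after quantile normalization (adjusted p = 0.043).

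Of the amino acid entry genes, Gpt encodes the cytosolic alanine aminotransferase, which makes pyruvate from alanine (Entrez 76282, chromosome 15, 76696726 to 76699675, mm10, 11 exons). Gpt was 168 and 167 FPKM in WT livers and 214 and 210 in MKRN1-null livers. The groups did not overlap, and the spread within each was small beside the gap. Gpt rose by 0.34 on the log2 scale (standard error 0.08, adjusted p = 0.0451 from limma), a 1.26-fold higher mean, and all 11 exons were higher in both MKRN1-null livers. It was the only 1 of the 10 genes to rise. Its change was 0.60 under median-of-ratios scaling (adjusted p = 0.0241) and 0.27 with TPM in place of FPKM (adjusted p = 0.0659). With any 1 of the 4 livers left out it was 0.32 to 0.35, with an adjusted p of 0.0976 to 0.195.

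Sds encodes serine dehydratase, which makes pyruvate from serine. Sds was 140 and 130 FPKM in WT livers and 103 and 113 in MKRN1-null livers. The groups did not overlap and all 8 exons were lower in both MKRN1-null livers, but the log2 difference of −0.32 (standard error 0.09) had an adjusted p of 0.0716. Got1, the cytosolic aspartate aminotransferase, was 73.3 and 71.3 FPKM in WT livers and 70.8 and 61.8 in MKRN1-null livers. Its log2 difference was −0.13 (95% interval −0.38 to 0.13, adjusted p = 0.379), and its sign turned to 0.13 under median-of-ratios scaling. Tat encodes tyrosine aminotransferase, a classical glucocorticoid target of liver. Tat was 283 and 243 FPKM in WT livers and 268 and 297 in MKRN1-null livers, and the groups overlapped. Its log2 difference was 0.11 (95% interval −0.19 to 0.40, adjusted p = 0.533). The palindromic glucocorticoid response element was in 3 of all 32851 promoters. At that rarity its absence from the 11 sequences says nothing about Tat. Its half-site TGTTCT (19.0% of promoters) was in none of them either.

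**Figure D3:**
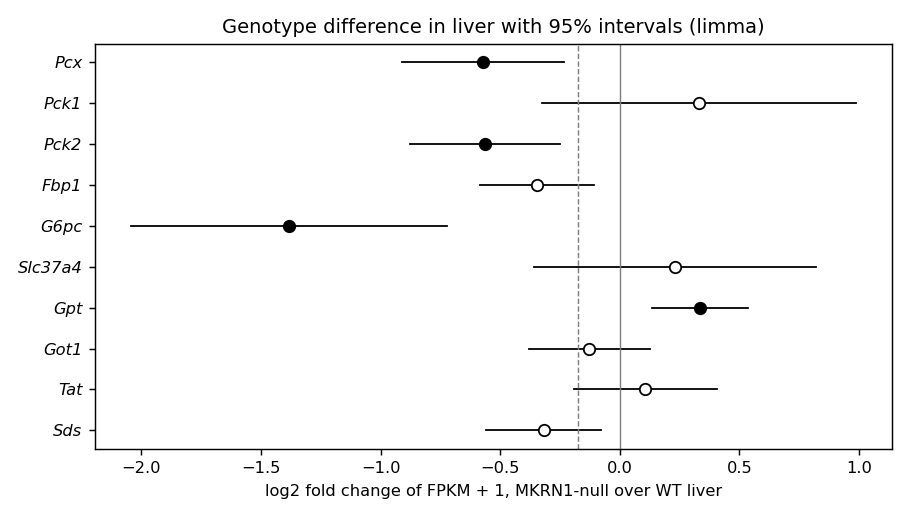
Log2 fold change of FPKM + 1 of the 10 genes in MKRN1-null over WT liver with 95% intervals from limma, filled where the adjusted p was under 0.05. The solid line marks 0 and the dashed line the median of all tested genes (−0.18), and G6pc (−1.38) lies farthest from both.

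The isoenzymes of these genes were followed beside them. Of 10 genes 5 were tested in liver, and 0 passed an adjusted p under 0.05 by limma, although 3 had an unadjusted p under 0.05. In all 5 both MKRN1-null livers lay below both WT livers (57.5% of all tested genes), and their median log2 difference was −0.31. Gpt2, the mitochondrial alanine aminotransferase, was singled out after its values were seen. Gpt2 was 184 and 168 FPKM in WT livers and 138 and 121 in MKRN1-null livers, a log2 difference of −0.44 (adjusted p = 0.0502). Thus Gpt was higher and Gpt2 lower in both MKRN1-null livers than in both WT livers.

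Among regulators of the route Hnf4a and Klf15 rose and none fell. Of 21 transcription factors, co-activators and receptors 0 fell by limma and 2 rose, with a median log2 difference of 0.17, and at an unadjusted p under 0.05 there were 2 lower and 3 higher. Over all tested genes 16.9% fell and 2.51% rose, with a median of −0.18. Hnf4a, a nuclear receptor that maintains hepatocyte expression, was 112 and 97.5 FPKM in WT livers and 145 and 158 in MKRN1-null livers and rose by 0.53 (adjusted p = 0.0355). Klf15, a factor that promotes amino acid breakdown and gluconeogenesis in fasting, was 47.1 and 41.9 FPKM in WT livers and 68.5 and 66.8 in MKRN1-null livers and rose by 0.60 (adjusted p = 0.0221). Ppargc1a, the fasting co-activator, was 1.68 and 1.18 FPKM in WT livers against 0.921 and 0.784 in MKRN1-null livers, a log2 difference of −0.38 (adjusted p = 0.115), and it reached the filter in the WT livers only. Foxo1, the factor that insulin signalling inhibits, differed by 0.25 (adjusted p = 0.297). The count of 2 was 4 under median-of-ratios scaling, 1 without WT replicate 2 and 0 without either MKRN1-null replicate.

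Among the enzymes that gluconeogenesis shares with glycolysis and the carriers around mitochondria, falls were found and no rises. Of 18 tested genes 9 fell and 0 rose (12 and 0 at an unadjusted p under 0.05), and their median was −0.46 on the log2 scale, where all genes had 16.9% lower and a median of −0.18. Ldhb, a lactate dehydrogenase subunit, was 4.68 and 4.79 FPKM in WT livers and 1.35 and 1.60 in MKRN1-null livers and fell by 1.22 (adjusted p = 0.0102). Ldha, far more abundant, was 680 and 817 FPKM in WT livers and 611 and 474 in MKRN1-null livers. Its difference of −0.47 was not called (adjusted p = 0.11). Gpi1, the glucose phosphate isomerase, was 99.4 ± 6.18 FPKM (SD, n = 2) in WT livers and 48.8 ± 1.51 in MKRN1-null livers and fell by 1.01 (adjusted p = 0.0106). The glycolytic enzymes Eno1 and Gapdh fell by 0.93 (adjusted p = 0.0185) and 0.73 (adjusted p = 0.0301). These enzymes work in both directions, and mRNA does not show which direction was used. The count of 9 was 3 under median-of-ratios scaling, 2 without WT replicate 1, 5 without WT replicate 2, 3 without MKRN1-null replicate 1 and 0 without MKRN1-null replicate 2.

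Genes of the steps that oppose gluconeogenesis and of their regulators were compared with all genes in the same way. Of 10 tested genes 4 fell and 0 rose (5 and 0 at an unadjusted p under 0.05), with a median of −0.34, while over all genes 16.9% fell, 4278 of 10822 had an unadjusted p under 0.05 in either direction and the median was −0.18. Pklr encodes the liver pyruvate kinase, which undoes the work of Pck1. Pklr was 236 and 189 FPKM in WT livers and 121 and 130 in MKRN1-null livers and fell by 0.75 (adjusted p = 0.0276). Pfkl, the liver phosphofructokinase, fell by 0.55 (adjusted p = 0.0191) and Pdha1, a subunit of pyruvate dehydrogenase, by 0.46 (adjusted p = 0.0469). Pdk4, a kinase that shuts pyruvate dehydrogenase and so spares pyruvate for Pcx, was 8.41 and 10.1 FPKM in WT livers and 1.44 and 0.719 in MKRN1-null livers. Pdk4 fell by 2.32 (adjusted p = 0.0107), the largest fall among the tested genes of this list. The count of 4 was 1 under median-of-ratios scaling, and also when WT replicate 1 or either MKRN1-null replicate was left out.

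Glycerol enters the route through Gk and the glycerol 3-phosphate dehydrogenases. Of 4 tested genes 1 fell and 0 rose (3 and 0 at an unadjusted p under 0.05), against 16.9% lower over all genes, and their median was −0.82. Aqp9, the glycerol channel of hepatocytes, was singled out after its values were seen, and it was 148 and 163 FPKM in WT livers and 163 and 148 in MKRN1-null livers (adjusted p = 0.991). Gpd2, the mitochondrial dehydrogenase, was 15.7 and 13.4 FPKM in WT livers and 8.08 and 6.79 in MKRN1-null livers and fell by 0.88 (adjusted p = 0.0195). Gk, the glycerol kinase, and Gpd1, the cytosolic dehydrogenase, passed the study thresholds only, at −0.94 (adjusted p = 0.119) and −0.76 (adjusted p = 0.0982). Gpd2 lost its call without WT replicate 1 (adjusted p = 0.0582) and without MKRN1-null replicate 1 (0.0537) or 2 (0.106).

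Among other genes of amino acid entry rises outnumbered falls. Of 32 tested genes 10 rose and 3 fell, with a median of 0.28, whereas 2.51% of all tested genes rose. Slc43a1, a transporter of large neutral amino acids, was 0.772 and 0.631 FPKM in WT livers and 6.04 and 7.17 in MKRN1-null livers and rose by 2.16 (adjusted p = 0.0069). It reached the filter in the MKRN1-null livers only. Hpd, an enzyme of tyrosine breakdown downstream of Tat, was 928 and 910 FPKM in WT livers and 1722 and 1698 in MKRN1-null livers and rose by 0.90 (adjusted p = 0.013). Gnmt, the glycine methyltransferase, and Hal, the histidase that opens histidine breakdown, rose by 0.83 (adjusted p = 0.014) and 0.71 (adjusted p = 0.0173). Among the 3 genes that fell, Asrgl1 and Agxt2 were named after their values were seen, and they fell by 0.53 and 0.50 (adjusted p = 0.0358 and 0.0281). Median-of-ratios scaling gave 15 higher and 0 lower. The number higher was 4 without WT replicate 1, 1 without MKRN1-null replicate 1 and 0 without MKRN1-null replicate 2, and the number lower was 0 without any 1 of the 4 livers. Hal and Gls2 are also periportal markers, and Oat of the same list is a pericentral one. Of the 6 periportal markers 4 were higher in both MKRN1-null livers (11.8% of all tested genes), with Hal and Gls2 among them. The 4 also include Ass1, at 0.750 and 0.780 FPKM in WT livers and 1.01 and 1.05 in MKRN1-null livers. Ass1 reached the filter in the MKRN1-null livers only, so the count of 4 is not a fair match for that share. Hsd17b13 was lower in both, and the periportal sums overlapped (1427 and 1523 FPKM in MKRN1-null livers against 1461 and 1531 in WT livers). Of the genes named from these lists, Pdk4 passed the test in all 4 fits that left out a liver, Ldhb, Gpi1 and Hpd in 3 of 4, and Hnf4a, Gapdh and Pdha1 in 0 of 4, and none changed sign.

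**Figure D4:**
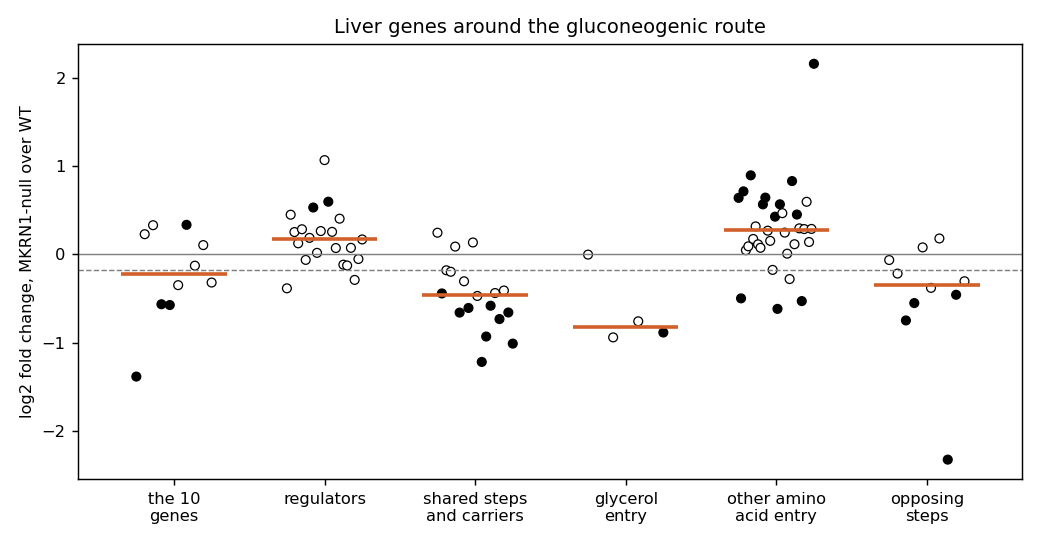
Log2 fold change in MKRN1-null over WT liver of every tested gene of 6 groups, filled where the adjusted p was under 0.05, with the group median in orange, 0 as a solid line and the median of all tested genes as a dashed line. Medians are −0.22 for the 10 genes, 0.17 for regulators, −0.46 for shared steps and carriers, −0.82 for glycerol entry, 0.28 for other amino acid entry and −0.34 for opposing steps.

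In subcutaneous fat 6 of the 10 genes were tested. G6pc, Fbp1, Tat and Sds were at most 0.333 FPKM in any fat library. Pcx (346 ± 27.1 FPKM, SD, n = 2) and Pck1 (262 ± 20.3) were the most abundant in WT fat, followed by Gpt (168 ± 15.4). Pck2 was 8.32 ± 0.588 FPKM, above its level in WT liver. By limma 0 of the 6 genes and 0 of 12164 genes (0% in each direction) passed an adjusted p under 0.05, and 1 of the 6 and 785 of all had an unadjusted p under 0.05. By the study thresholds 1 of the 6 was higher (0.707% of all tested genes) and 0 were lower (5.36%). Both MKRN1-null libraries lay below both WT libraries for 2 of the 6 (36.1% of all tested genes) and above for 2 (9.03%).

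Pck1 and Pcx, the enzymes of glyceroneogenesis, differed in opposite directions in fat. Pck1 was 277 and 248 FPKM in WT fat and 535 and 473 in MKRN1-null fat, and all 10 exons were higher in both MKRN1-null libraries. The groups did not overlap, and the skeletal muscle markers summed to 29.4 and 85157 FPKM in the MKRN1-null libraries. Their part in the Pck1 difference was not tested. The log2 difference was 0.94 (standard error 0.31, unadjusted p = 0.0323, adjusted p = 0.68), past the study thresholds. Without MKRN1-null replicate 2 it was 1.03, and without MKRN1-null replicate 1 it was 0.85. Pcx was 365 and 327 FPKM in WT fat and 253 and 124 in MKRN1-null fat. The groups did not overlap, but the MKRN1-null libraries differed about as much from each other as from WT. The log2 difference of −0.96 (standard error 0.44, adjusted p = 0.68) passed neither criterion. It was −0.45 without MKRN1-null replicate 2 and −1.47 without MKRN1-null replicate 1, so its size depends on MKRN1-null replicate 2, the library with high muscle markers.

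The other 4 genes differed mainly in MKRN1-null fat replicate 2. Got1 was 6.02 and 6.31 FPKM in WT fat and 5.82 and 42.9 in MKRN1-null fat. Slc37a4 was 7.79 and 8.58 FPKM in WT fat and 9.78 and 51.1 in MKRN1-null fat. Gpt was 179 and 157 FPKM in WT fat and 161 and 66.5 in MKRN1-null fat. Pck2 was 7.90 and 8.73 FPKM in WT fat and 7.16 and 3.56 in MKRN1-null fat. In each the first MKRN1-null library was nearer to WT and the second, with muscle markers at 85157 FPKM, stood apart. Adjusted p was 0.68 for all 4, and the part of muscle in these values was not tested.

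**Figure D5:**
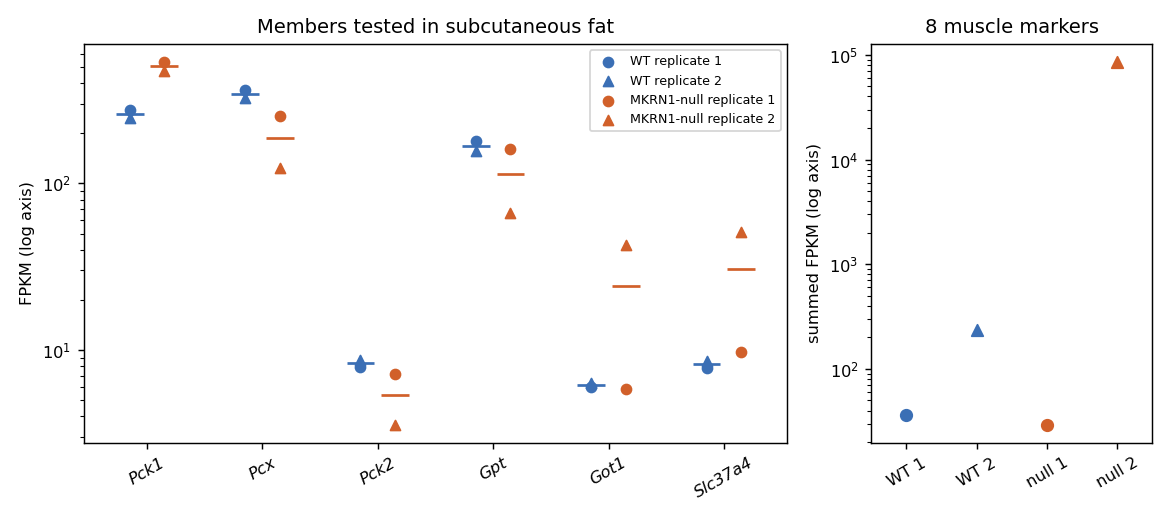
FPKM of the 6 genes tested in fat (left) and summed FPKM of 8 skeletal muscle markers (right) in each fat library on log axes, with WT in blue, MKRN1-null in orange, circles for replicate 1, triangles for replicate 2 and bars for the mean. Pck1 of both MKRN1-null libraries (535 and 473) lies above WT, and the muscle sum reaches 85157 in MKRN1-null replicate 2 alone.

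Of the 18 other genes of glyceroneogenesis in fat, with the steps around Pck1 and Pcx, 0 passed an adjusted p under 0.05 by limma and 1 had an unadjusted p under 0.05. That gene was Gk, at 4.62 and 6.56 FPKM in WT fat and 2.49 and 1.73 in MKRN1-null fat. Its log2 difference of −1.08 passed the study thresholds, by which 5.36% of all tested genes were lower. The median of the 18 was 0.12, against −0.20 over all tested genes. Without MKRN1-null replicate 2, a comparison added after the data were seen, these medians were −0.01 and −0.04. Gpd1, which makes glycerol 3-phosphate, was 820 and 734 FPKM in WT fat and 566 and 407 in MKRN1-null fat, and its log2 difference of −0.69 passed neither criterion. Pdk4 was 40.8 and 28.1 FPKM in WT fat and 39.3 and 288 in MKRN1-null fat, and the high value was again that of the library with high muscle markers.

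The genotype difference in fat was compared with that in liver for the 6 genes tested in both. By the interaction of tissue and genotype 0 of 6 passed an adjusted p under 0.05 by limma (0% of 9917 genes), and 0 of 6 had an unadjusted p under 0.05. Pck1 differed by 0.61 more in fat than in liver (95% interval −0.29 to 1.499, adjusted p = 0.774). For Pcx the fat difference minus the liver difference was −0.39 (95% interval −1.51 to 0.73, adjusted p = 0.896). With these intervals neither equal nor clearly unequal differences in the tissues can be read from 8 libraries.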

How the data were processed

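Poly(A) RNA libraries of liver and subcutaneous fat, 2 per genotype and tissue, had been made with a TruSeq kit and sequenced on an Illumina HiSeq. The deposited files give coverage, FPKM and TPM of 36780 transcripts, made by the authors with HISAT2, SAMtools and StringTie 1.3.3b on mm10 with a RefSeq annotation, as the file headers and the submitters' processing notes state. The study's methods describe another pipeline, whose counts were not used here. FPKM is scaled to the depth of each library, which was taken from the ratio of coverage to FPKM, and is not a count, so that no count test was run.

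FPKM was summed over the transcripts of an Entrez ID, and 24462 of 24532 IDs were given a symbol from RefSeq (GRCm38.p6). Genes with an FPKM of at least 1 in at least 2 of 4 libraries were fitted by limma 3.58.1 in R 4.3.3 (lmFit, eBayes with trend, two-sided) on log2(FPKM + 1), with a pseudocount of 1. P was adjusted by the Benjamini-Hochberg method over all tested genes. Fold changes on this scale understate the change of scarce genes. The scripts were tested on simulated data. The members and lists were chosen with earlier results of these data known. Genes of the lists were named by the largest absolute change past the adjusted threshold, up to 4 a list, with Ppargc1a, Foxo1, Hnf4a, Pklr, Gpd1, Pdk4 and Mkrn1 always. Values of some list genes are not given here. Alternatives were a pseudocount of 0.1, TPM, no filter, a filter at 5, median-of-ratios and quantile scaling, no trend, all 8 libraries in 1 fit, the replicate number as a block, single transcripts and leaving out each library. Promoters were matched by symbol for 8 of the 10 genes, and motifs were searched on both strands. Tables were handled in pandas 2.3.3 and numpy 2.4.6 (Python 3.11.15), and plots drawn in matplotlib 3.10.9.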

Additional observations from a re-analysis of the deposited data

Results flagged for a closer look

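In 4 of the genes named above, leaving Ldha aside, the libraries of the 2 tissues moved in opposite directions. Both MKRN1-null libraries lay below both WT libraries in liver and above them in fat. Of these, Gpt2 and Asrgl1 had been named after their values were seen. Other list genes showed the same pattern, among them Mpc1, Got2, Ldha and Tpi1. Its share over all tested genes was not counted, so the number is no result about the named genes. For Gpt2 the log2 difference in fat minus that in liver was 1.22 (unadjusted p = 0.00164, adjusted p = 0.368 from limma's interaction), and in fat Gpt2 was 33.6 and 31.1 FPKM in WT libraries against 51.0 and 61.7 in MKRN1-null libraries. For Gpd2 it was 2.02 (unadjusted p = 0.0389, adjusted p = 0.614), with 4.58 and 4.67 FPKM in WT fat and 5.27 and 23.4 in MKRN1-null fat. For Asrgl1 it was 0.89 (unadjusted p = 0.0107, adjusted p = 0.507), with 12.03 and 10.3 FPKM in WT fat and 12.5 and 17.1 in MKRN1-null fat. For Pdha1 it was 0.75 (unadjusted p = 0.024, adjusted p = 0.575), with 94.9 and 93.2 FPKM in WT fat and 101 and 132 in MKRN1-null fat. In all 4 the highest value was that of MKRN1-null replicate 2, the library with high muscle markers. None passed the correction over 9917 genes.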

How the results depend on the processing

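The counts of the 10 genes moved with the processing. In liver the 3 lower genes became 5 with TPM and 0 without a filter, with median-of-ratios scaling or with transcripts tested one by one. They became 1 with a filter at 5, all 8 libraries in 1 fit or the replicate block. Quantile normalization also gave 1, but this was Fbp1. There G6pc (adjusted p = 0.0619 from limma), Pcx (0.0796) and Pck2 (0.123) lost their calls. The count also fell when a library was left out. The 1 higher gene became 0 with TPM, no filter, no trend, all 8 libraries, the replicate block or transcripts, and 0 to 0 when a library was left out. By the study thresholds the 1 lower gene became 2 with a pseudocount of 0.1 or transcripts, 3 with TPM and 1 to 2 when a library was left out, and the 0 higher became 1 with median-of-ratios scaling and 0 to 1 when a library was left out. In fat the adjusted counts of 0 became 2 higher with the replicate block. They also changed when a library was left out, which left 1 library in a group. By the study thresholds in fat, 0 lower became 1 with all 8 libraries or transcripts and 0 to 3 when a library was left out, and 1 higher became 0 with TPM, 2 with the block and 1 to 3 when a library was left out. The tissue difference counts of 0 and 0 changed when a library was left out, which left 1 library in a group. Signs turned for Slc37a4 and Tat without WT liver replicate 2 (leaving out a liver gave −0.101 to 0.559 and −0.004 to 0.215), for Got1 with median-of-ratios (0.133) and quantile scaling (0.027), and for the tissue difference of Pck2 with a pseudocount of 0.1 (0.365), TPM (0.019), median-of-ratios (0.076) and without a replicate 2 of fat (leaving out a library gave −0.466 to 0.374), and for that of Pcx without MKRN1-null fat replicate 2 (leaving out a library gave −0.9 to 0.12). Numbers of WT and MKRN1-null mice were only shared, with correlations of deviations of −0.035 in liver and 0.086 in fat. With the block G6pc kept its call (adjusted p = 0.0448), and Pck2 (0.0688), Pcx (0.0585) and Gpt (0.0992) lost it. The animal as a block changed no call of the tissue difference.

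Counts of the lists in liver were recomputed after the data were seen. Regulators (2 higher) became 1 without a filter or with the block, 4 with median-of-ratios and 0 with all 8 libraries, and 0 to 2 when a library was left out. Shared steps (9 lower) became 4 without a filter, 3 with median-of-ratios, 5 with quantile scaling and 0 with all 8 libraries, and 0 to 5 when a library was left out. Other amino acid entry (3 lower) became 1 without a filter, with quantile scaling or the block and 0 with median-of-ratios, all 8 libraries or any library left out (0 to 0), and its 10 higher became 3 with all 8 libraries and 0 to 7 when a library was left out. Opposing steps (4 lower) became 1 with median-of-ratios or quantile scaling, 0 with all 8 libraries and 1 to 3 when a library was left out. The causes were not tested. Over all genes the replicate block moved 1834 lower and 272 higher calls in liver to 1258 and 235. Pck2 in liver, with under 10 reads per base, is limited by depth.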

Other observations

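Slc37a4 is annotated with 3 transcripts that begin at different starts. Coverage per aligned gigabase of the first exon of the transcript that starts at 44398176 on chromosome 9 (mm10) was 31.4 in WT liver replicate 1 and 0.705, 1.24 and 0.524 in the other 3 livers. The exons common to the transcripts did not show such a gap, as the exon from 44400489 to 44400647 had 106 and 82.6 in WT livers and 104 and 122 in MKRN1-null livers. The split of Slc37a4 between its transcripts therefore differed between replicates of WT liver, and no statement on its starts was made.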
